A study of Homo sapiens with 4 samples.

Results

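The lung epithelial identity genes examined here were chosen by name and comprise 4 simple keratins (KRT7, KRT8, KRT18 and KRT19), the mucins MUC1 and MUC5AC, the secretory and surfactant genes AGR2 and SFTPB, and the forkhead transcription factors FOXA1 and FOXA2. Of these 10 genes, 9 had a row among the 28283 genes of the expression table. SFTPB, which encodes surfactant protein B, was not analysed here. Levels are in FPKM, fragments per kilobase of exon set against all mapped fragments. In one or both input libraries 8 of the 9 reached an FPKM of 1, and 12268 genes in all met this filter and were kept. MUC1 was the measured gene below it. The cells were A549, a human lung adenocarcinoma line grown in RPMI medium with fetal bovine serum, stably transduced by lentivirus with a control vector (shNC, PLKO_1) or with an shRNA against YTHDF2 (shY2-2, the second of 2 shRNA designs). Poly(A) RNA of each condition was fragmented and sequenced directly (1 input library) and after pulldown with an m6A antibody (1 IP library), which makes 4 libraries. The comparison therefore described these libraries, had no replicate check and carried no p-value between conditions. The input libraries addressed the level of each mRNA after depletion of an m6A reader, and the IP libraries addressed where these mRNAs carried the mark.

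N6-methyladenosine (m6A) is a methyl mark on internal adenosines of mRNA, placed by a nuclear methyltransferase complex mainly within short sequences around AC and often near stop codons and in 3′ UTRs. YTHDF2 is a cytoplasmic reader that binds m6A and brings bound mRNAs to the decay machinery. Keratins are the intermediate filament proteins of epithelia, in which a type I and a type II chain pair. KRT7 and KRT8 are type II and KRT18 and KRT19 are type I chains of simple epithelia such as those of the airway and alveoli, and pathologists use KRT7 as a mark of lung adenocarcinoma. MUC5AC is the gel-forming mucin of airway goblet cells, MUC1 is a membrane mucin, AGR2 is a protein disulfide isomerase of the endoplasmic reticulum that mucin folding requires, and FOXA1 and FOXA2 are pioneer factors of the foregut endoderm.

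The sequences below show coding stretches of KRT7, KRT18 and AGR2 that lay inside a peak of both conditions and carry the account of their peaks. A peak is a region enriched in the IP over the input library. All are reference sequence of GRCh38 read 5′ to 3′ on the strand of the transcript, and capitals mark each DRACH, a motif of A, G or T, then A or G, then AC, then A, C or T. GGAC is a stricter core that lies within a DRACH when A, C or T follows it. Both were counted on the transcript strand only. The KRT7 stretch is chr12:52235277-52235366 (+ strand, exon 2), the KRT18 stretch chr12:52952722-52952842 (+ strand, exon 7, ending with the stop codon) and the AGR2 stretch chr7:16801658-16801796 (- strand, exon 2, opening with the start codon).
KRT7: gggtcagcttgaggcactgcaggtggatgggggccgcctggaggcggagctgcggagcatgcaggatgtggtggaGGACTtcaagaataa
KRT18: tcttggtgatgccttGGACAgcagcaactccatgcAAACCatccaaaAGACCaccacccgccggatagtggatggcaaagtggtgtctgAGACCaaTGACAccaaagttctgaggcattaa
AGR2: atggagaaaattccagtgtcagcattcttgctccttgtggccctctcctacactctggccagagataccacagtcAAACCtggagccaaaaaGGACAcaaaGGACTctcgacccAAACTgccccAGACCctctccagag

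Windows of 25 nt from 3′ UTRs, centred on the A of a GGAC that a peak of both lists covered, are given with GGAC in capitals because they are the members' candidate motifs outside the coding sequence. They lie at chr7:16791880-16791904 (AGR2), chr12:52897265-52897289 (KRT8) and chr17:41523660-41523684 (KRT19), all on the - strand, with the A 1016, 151 and 71 nt after the stop codon. The FOXA2 window, chr20:22581789-22581813 (- strand, 49 nt after the stop codon), was covered in the shNC list and not in the shY2-2 list and is shown for contrast.
AGR2: tttggcccctGGACtatggtgctgt
KRT8: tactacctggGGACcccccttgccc
KRT19: gggaaggaagGGACccttacccccg
FOXA2: cccggatcgaGGACaagtgagagag

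The targeted gene was examined first. YTHDF2 (ENSG00000198492) stood at 3.56 FPKM in shNC and 1.02 FPKM in shY2-2 (log2 ratio -1.18). All log2 ratios here are log2((FPKM shY2-2 + 1)/(FPKM shNC + 1)), which shrinks differences of weakly expressed genes. The median ratio of the 12268 kept genes was 0.0020. Fragment numbers are unknown, so levels carry no interval and no detection floor. Of the epithelial surface genes, CDH1, which encodes E-cadherin, and EPCAM were measured at 9.99 and 2.02 FPKM in shNC. Of the 8 alveolar type II genes with a row, 5 stood below 1 FPKM in both libraries, among them the surfactant protein gene SFTPC, and LPCAT1, ETV5 and ABCA3 reached 1 FPKM. Fibroblast and endothelial markers were low. Summed over 6 fibroblast genes, FPKM was 2.84 in shNC and 1.89 in shY2-2, and over 5 endothelial genes 0.148 and 0.0533. Over 6 leukocyte genes the sum was 16.3 and 13.7. Of these, CD68 (12.2 and 10.2 FPKM) and CD14 (3.56 and 2.97 FPKM) alone reached 1 FPKM. In both libraries CD68 stood above CDH1 and CD14 above EPCAM. In the leukocyte list 1 gene was listed at 0 in each library, and in the endothelial list 2 were listed at 0 in shY2-2. Their part in the results was not tested.

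All 8 kept members had a lower FPKM in the shY2-2 than in the shNC input library, with a median log2 ratio of -0.70. Of all kept genes, 49.7% had a ratio below 0. AGR2 and FOXA2 passed a log2 ratio of -1, which 2.14% of kept genes passed, and no member passed 1, which 0.986% passed. At a threshold of 1.5-fold lower, 6 of the 8 passed (KRT7, KRT8, KRT19, MUC5AC, AGR2 and FOXA2) against 8.92% of kept genes. In a bulk library, fewer cells of a type and less RNA per cell cannot be told apart. The members were chosen with earlier results of these libraries known, so the counts are a description and no independent evidence of direction.

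**Figure D1:**
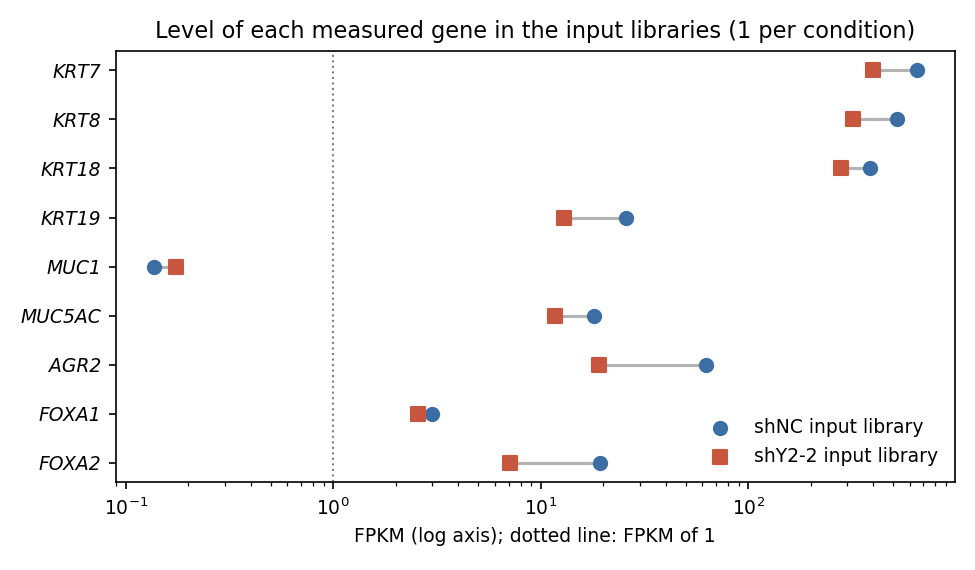
Level of the 9 measured genes in FPKM on a log axis, with circles for the shNC and squares for the shY2-2 input library (1 library per condition, no error bars). The square lies left of the circle for every gene except MUC1, which stood at 0.137 and 0.175 FPKM, and the widest gaps on this axis belong to AGR2 and FOXA2.

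KRT7 (ENSG00000135480, chr12:52232520-52252186, + strand) was the most abundant member. It stood at 649 FPKM in shNC, rank 32 of the kept genes, and at 399 FPKM in shY2-2, rank 63, which is 61.5% of the shNC level (log2 ratio -0.70). KRT8 (ENSG00000170421, chr12:52897187-52949954, - strand), the type II partner found in nearly all simple epithelia, stood at 523 and 322 FPKM, 61.5% of the shNC level (log2 ratio -0.70). These 2 type II chains therefore lay side by side, with ratios at percentiles 6.0 and 6.08 of the kept genes.

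KRT18 (ENSG00000111057, chr12:52948871-52952901, + strand), the type I partner of KRT8 and its neighbour on the chromosome, stood at 388 FPKM in shNC and 281 FPKM in shY2-2, 72.4% of the shNC level. Its log2 ratio of -0.46 lay at percentile 13.1. KRT19 (ENSG00000171345, chr17:41523617-41528308, - strand), a short type I chain without the usual tail domain, stood at 25.9 and 12.9 FPKM, 49.9% of the shNC level. Its log2 ratio of -0.95 lay at percentile 2.58, the lowest of the 4 keratins, and its rank went from 1361 to 2906. On TPM values, that is FPKM scaled to the same total in each library, KRT19 also passed -1, with a log2 ratio of -1.06.

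The balance of the chains differed by which keratins were summed. Summed FPKM of KRT7 and KRT8 was 2.83 times that of KRT18 and KRT19 in shNC and 2.45 times in shY2-2. Over all 19 type II and 12 type I keratin genes with a row, the same quotient was 6.04 and 6.33, and KRT81, a type II hair keratin, held 44.1% of all keratin FPKM in shNC and 52.2% in shY2-2. The share of KRT7 in the keratin sum was 21.5% and 17.7%, that of KRT8 17.3% and 14.3%, and that of KRT18 12.8% and 12.5%. Among the 318 genes with a mean FPKM of at least 100, which include KRT7, KRT8 and KRT18, the median log2 ratio was 0.16 and 29.9% had a ratio below 0.

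Keratin levels carry a limit of assignment. Exons of KRT8 and KRT18 share 525 nt on opposite strands, and exons of KRT7 share 282 nt with the antisense gene KRT7-AS, which stood at 12.2 and 11.3 FPKM. The libraries were made by a strand-specific dUTP method, and whether counting used strand is not given in the sources used here. Of 34 pseudogene copies of the member keratins with a row, 2 reached 1 FPKM, and their summed FPKM was 6.94 in shNC and 6.54 in shY2-2. The most abundant were KRT8P12 (2.27 and 2.67 FPKM), KRT8P3 (1.58 and 1.45 FPKM) and KRT8P33 (0.691 and 0.456 FPKM), all far below KRT8.

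MUC5AC (ENSG00000215182, chr11:1157953-1201138, + strand) stood at 18.1 FPKM in shNC and 11.7 FPKM in shY2-2, 64.6% of the shNC level, with a log2 ratio of -0.59 at percentile 8.78. MUC1 (ENSG00000185499, chr1:155185824-155192916, - strand) stood at 0.137 and 0.175 FPKM, below 1 in both libraries, so no direction was read from it. The mucins of this set thus split into a gel-forming mucin that these cells expressed and a membrane mucin near the lower end of the table.

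AGR2 (ENSG00000106541, chr7:16791811-16833433, - strand) had the lowest ratio of the members. It stood at 62.3 FPKM in shNC, rank 519, and at 19.1 FPKM in shY2-2, rank 1995, which is 30.6% of the shNC level. Its log2 ratio of -1.66 had 32 kept genes below it, percentile 0.261.

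FOXA2 (ENSG00000125798, chr20:22581005-22585455, - strand) stood at 19.4 FPKM in shNC and 7.09 FPKM in shY2-2, 36.6% of the shNC level, with a log2 ratio of -1.33 and 83 kept genes below it (percentile 0.677). FOXA1 (ENSG00000129514, chr14:37589984-37596059, - strand), its close relative with the same DNA-binding domain fold, stood at 3.00 and 2.57 FPKM, 85.9% of the shNC level. Its log2 ratio of -0.16 lay at percentile 33.5, the highest of the kept members. The forkhead pair therefore differed in both level and ratio in these libraries.

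**Figure D2:**
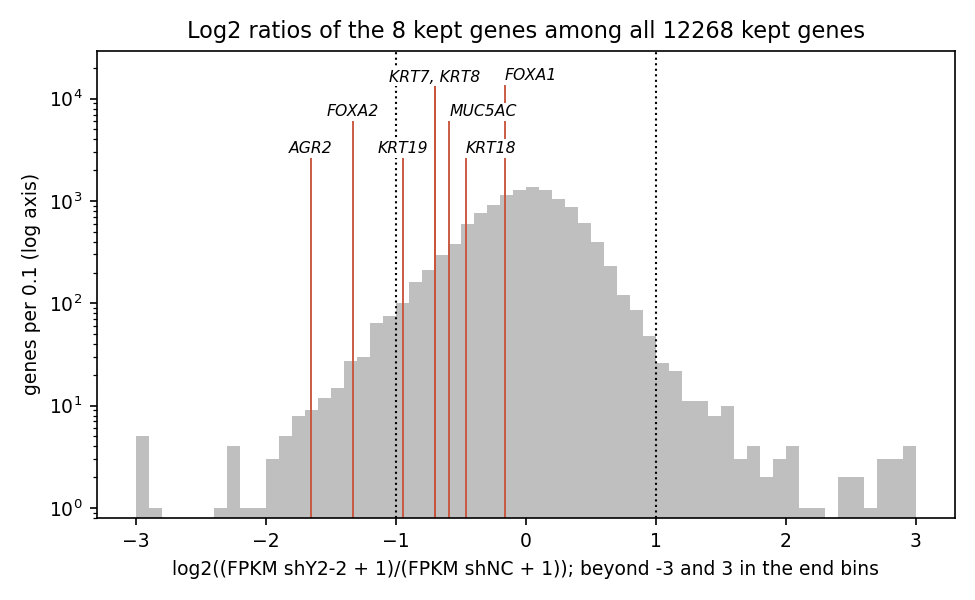
Histogram of the log2 ratios of the 12268 kept genes in bins of 0.1 (gene number on a log axis, dotted lines at -1 and 1), with the 8 kept members marked by vertical lines. All 8 lie left of 0, between -1.66 (AGR2) and -0.16 (FOXA1), and 2 lie beyond -1.

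Every kept member carried at least 1 listed m6A peak in each condition, with no cut on FDR. Over all kept genes, 81.2% had a peak in the shNC list, 78.4% in the shY2-2 list and 72.7% in both, so a peak in all 8 is close to what most expressed genes had. Peaks were called by the authors for each condition on 1 IP against 1 input library. Fold enrichment, IP over input as a linear ratio, and FDR are their values. At an FDR of at most 0.05, 6 of the 8 had a peak in shNC (not FOXA1 or KRT19). In shY2-2, 6 had one as well (not FOXA1 or MUC5AC). The share of all kept genes at this cut was not computed. The members held 30 peaks in the shNC and 25 in the shY2-2 list, and MUC1 held none. By the authors' annotation 11 and 10 of them lay in 3′ UTRs, 36.7% and 40%, against 59.1% and 59.5% of all peaks. On the canonical transcripts of GENCODE release 44, 19 of 30 and 19 of 25 touched coding sequence, and 5 in each list spanned the stop codon. Placement on canonical transcripts was not computed over all peaks.

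Keratin peaks had low fold enrichments and often very low FDR. The 20 keratin peaks of the shNC list had a median fold enrichment of 1.535 and the 14 of the shY2-2 list 1.51, against 2.17 and 2.26 for all peaks. Peaks of the abundant genes, those reaching 100 FPKM in both libraries, had medians of 1.84 and 1.91, and 46.7% and 45.1% of them lay in 3′ UTRs by the authors' annotation. A fold enrichment of at least 2 was reached by 10 of the 30 member peaks in shNC (33.3%) and 5 of the 25 in shY2-2 (20.0%), against 57.7% and 59.4% of all peaks. An FDR of at most 0.05 was reached by 21 of 30 (70.0%) and 19 of 25 (76.0%), against 56.4% and 52.1%. Read depth behind a peak is unknown, and the mRNA level of KRT7, KRT8 and KRT18 moves with this pattern of low fold and low FDR. Its part in the result was not tested.

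Within the same gene, a shared base of exonic blocks (1 bp or more) joined 19 of the 30 shNC member peaks (63.3%, 95% Wilson interval 45.5 to 78.1) and 19 of the 25 shY2-2 member peaks (76.0%, 56.6 to 88.5) to a peak of the other list. Over all peaks the shares were 55.3% and 64.7%, and over peaks of the abundant genes, which include KRT7, KRT8 and KRT18, 83.7% and 86.6%. The intervals cover the counting of peaks only. A peak of the simple keratins in the shNC list met one of the other list in 12 of 20 cases, and a keratin peak of the shY2-2 list in 11 of 14. Of 8 shNC peaks with no part in the canonical transcript, all belonged to KRT7, KRT8 or KRT18, against 1 such peak, in KRT8, in the shY2-2 list. Their FDR lay between 0.000245 and 0.30 in shNC and was 0.0302 in shY2-2. The share of such peaks over all peaks was not computed, so no difference between the conditions was read. Most of these peaks lie in exons of other transcripts of the same gene. The KRT7 peak at chr12:52245939-52246443 lies in none.

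**Figure D3:**
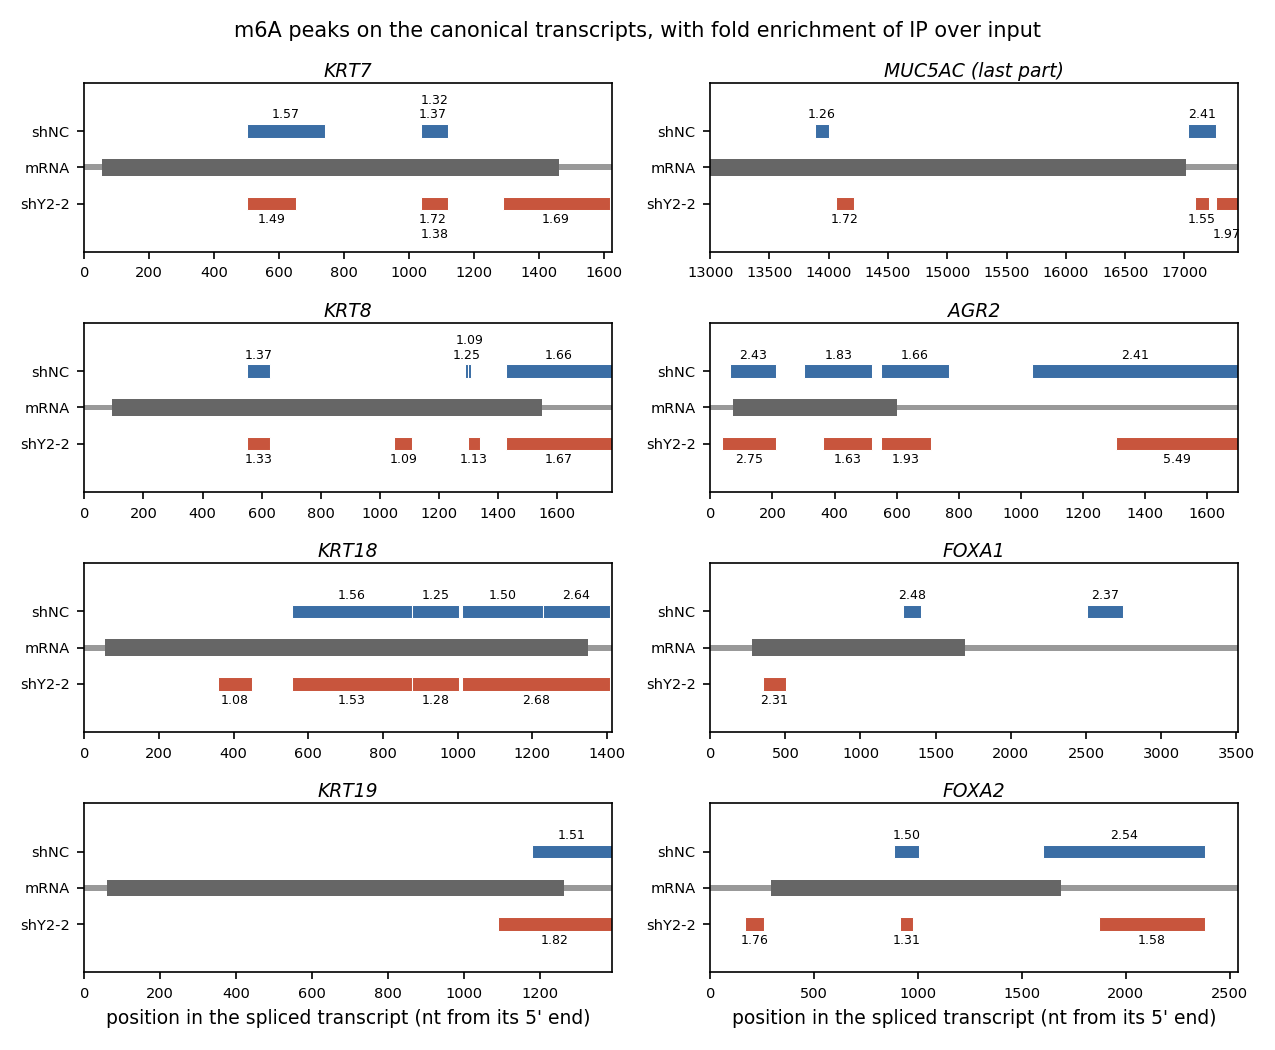
Peaks of the 8 kept members along their canonical transcripts, in nt from the 5′ end, with the coding sequence as the thick grey bar, shNC peaks above it, shY2-2 peaks below it and the fold enrichment printed at each peak. For MUC5AC the last part of the transcript is drawn, peaks without a part in the canonical transcript are left out, and so is the shNC peak at the end of KRT7 that is listed under KRT86. The peaks at the 3′ ends of KRT8, KRT18, KRT19 and AGR2 appear in both lists, and the FOXA1 peaks do not coincide.

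In KRT8, 7 peaks were listed for shNC and 5 for shY2-2. A peak of 91 nt in exon 2 had the same bounds in both lists, with a fold enrichment of 1.37 in shNC (FDR 7.94e-51) and 1.33 in shY2-2 (FDR 2.51e-26). The peak over the stop codon and 3′ UTR, chr12:52897187-52897546, also had the same bounds, with fold enrichments of 1.66 and 1.67. A peak at chr12:52901400-52901460 in shNC, widened to chr12:52901400-52901550 in shY2-2, had fold enrichments of 2.90 (FDR 0.000245) and 5.78 (FDR 0.0302). The latter value was the highest of any member peak in the shY2-2 list. This peak lies outside the canonical transcript, between its exons, but within exons of other KRT8 transcripts. The highest member value in the shNC list, 3.82, was also in KRT8, at chr12:52947533-52947712, with an FDR of 0.16.

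In KRT7, a peak over exons 2 to 4 was listed at chr12:52235277-52238771 in shNC (391 nt, fold enrichment 1.57) and at chr12:52235277-52238681 in shY2-2 (301 nt, 1.49). The KRT7 stretch printed above is its exon 2 part, with a single GGAC near its 3′ end. This peak thus began at the same base in both conditions and ended 90 nt of exonic sequence earlier in shY2-2.

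At the 3′ end of KRT7 the lists named different genes. The shY2-2 list gives KRT7 a peak at chr12:52248207-52248915 (330 nt over exons 8 and 9 and the stop codon), with a fold enrichment of 1.69 and an FDR of 1e-168. The shNC list gives KRT7 none there, but it holds a peak at chr12:52248207-52251796 (360 nt, fold enrichment 1.70, FDR 1e-268) under the name KRT86, a neighbouring hair keratin gene. That peak covers all 330 nt of the shY2-2 peak, has 336 nt in exons 8 and 9 of the KRT7 transcript and has 0 nt in exons of KRT86 in GENCODE. The KRT7 end was therefore enriched in both conditions by position, and in shY2-2 alone by gene name. Both peaks near exon 7 of KRT7, chr12:52244446-52245485 in both lists and chr12:52245375-52245493 or chr12:52245404-52245493, overlap each other and exons of KRT7-AS on the other strand, so the gene they belong to is uncertain. Their fold enrichments lay between 1.32 and 1.72.

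KRT18 had 6 peaks in shNC and 4 in shY2-2, together covering most of its mRNA from exon 3 to the 3′ end. The peaks at chr12:52950719-52951650 (fold enrichment 1.56 and 1.53) and chr12:52951710-52951948 (1.25 and 1.28) had the same bounds in both lists. The last part of the mRNA was called as a pair of peaks in shNC, chr12:52952127-52952514 (1.5) and chr12:52952573-52952901 (2.64), and as 1 peak in shY2-2, chr12:52952127-52952901 (2.68). The highest enrichment of KRT18 in shNC was thus over the last exon, which holds the stop codon. The first KRT18 peak of each list, in the 5′ part of the gene, overlaps exons of KRT8 on the other strand and is uncertain for the same reason.

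KRT19 had a single peak in each list at the 3′ end, chr17:41523617-41523827 in shNC (211 nt, fold enrichment 1.51, FDR 0.10) and chr17:41523617-41523916 in shY2-2 (300 nt, 1.82, FDR 0.0049). Both span the stop codon in exon 6. The whole of the shNC peak lay inside the shY2-2 peak, and a GGAC 45 nt before the end of the stop codon and another 71 nt after it were covered in both.

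MUC5AC peaks lay in the last part of its 49-exon transcript of 17448 nt. The 3′ UTR peak, chr11:1200718-1200958, had a fold enrichment of 2.41 in shNC (FDR 1.70e-05). In shY2-2 a peak at chr11:1200778-1200898 inside it had 1.55 (FDR 0.25), and another at chr11:1200958-1201138 (1.97, FDR 0.37) shared 1 nt with it. The coding peaks in exon 31, chr11:1191979-1192099 in shNC and chr11:1192159-1192308 in shY2-2, did not overlap and had an FDR of 0.29 and 0.060. MUC5AC peaks held 5 GGAC in shNC, 4 of them in the exon 31 peak, and 4 in shY2-2, which is 13.8 and 8.85 per kb against 4.10 and 3.95 per kb over all peaks. These densities rest on few motifs, and the 3′ UTR peak of shNC was the only MUC5AC peak with an FDR of at most 0.05.

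AGR2 had 4 peaks in each list, at matching places along the mRNA. The peak at the start codon had a fold enrichment of 2.43 in shNC and 2.75 in shY2-2, the peak over the following coding exons 1.83 and 1.63, and the peak over the stop codon 1.66 and 1.93. At the far 3′ end, chr7:16791811-16792470 in shNC had 2.41 (FDR 1.29e-05) and the shorter chr7:16791811-16792200 in shY2-2 had 5.49 (FDR 0.000724), which moved from percentile 58.0 of its list to 83.8. AGR2 was the member with the lowest RNA ratio and all its peaks passed an FDR of 0.05 in both lists. Of the 1411 nt under peaks in shY2-2, 1261 nt (89.4%) were under a peak in shNC as well.

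FOXA2 had 2 peaks in shNC and 3 in shY2-2. The peak at the stop codon and 3′ UTR, chr20:22581155-22581932 in shNC, had a fold enrichment of 2.54 (FDR 2.24e-06), and in shY2-2 it was called as chr20:22581155-22581663, within the 3′ UTR, with 1.58 (FDR 0.00141). The shNC peak thus reached back over the stop codon and the shY2-2 peak did not, which is why the FOXA2 window printed above was in the shNC list alone. A coding peak in exon 2, of 121 nt in shNC and 61 nt in shY2-2, had 1.5 (FDR 0.00219) and 1.31 (FDR 0.12). A 5′ UTR peak, chr20:22584315-22584405, was in the shY2-2 list alone (1.76, FDR 0.28).

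FOXA1, whose RNA ratio was the closest to 0 of the 8 kept members, had peaks at chr14:37591658-37591777 and chr14:37590313-37590552 in shNC and at chr14:37592554-37593956 in shY2-2, none of which overlapped between the lists. Over all peaks, 55.3% of the shNC and 64.7% of the shY2-2 list met a peak of the other list, so these few peaks were not read as a difference. Their FDR lay between 0.10 and 0.27, and none held a GGAC. FOXA2 had a 3′ UTR peak in both lists and FOXA1 had no peak at an FDR of 0.05 in either. Of all peaks, 56.4% in shNC and 52.1% in shY2-2 reached that FDR. FOXA1 RNA was also lower, at 3.00 and 2.57 FPKM against 19.4 and 7.09 FPKM for FOXA2. The part of this level in the peak calls was not tested.

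Overlapping peaks formed 22 pairs between the lists, some of them sharing a peak. Fold enrichment was higher in shY2-2 in 14 of the 22 (63.6%), with a median log2 difference of 0.03. Of the 21149 same-gene pairs over all peaks, 41.9% were higher in shY2-2, and their median was -0.08. Pairs that share a peak are not independent. The KRT7 peaks near exon 7, whose gene is uncertain, paired crosswise, with log2 differences of 0.01 to 0.38. The last KRT18 peak of shY2-2 paired with both shNC peaks there. The share of member pairs is therefore a description only. The widest gaps were in AGR2 (log2 difference 1.19), KRT8 (1.0) and KRT18 (0.84) toward shY2-2 and in FOXA2 (-0.68) and MUC5AC (-0.64) toward shNC. Where both peaks had the same bounds, in 5 pairs, the log2 difference was at most 0.33. The larger gaps were all between peaks with different bounds, whose fold enrichments refer to different stretches. Other pairs with different bounds had small gaps, such as 0.01 in KRT7 and 0.05 in KRT8. The part of the bounds in the gaps was not tested.

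**Figure D4:**
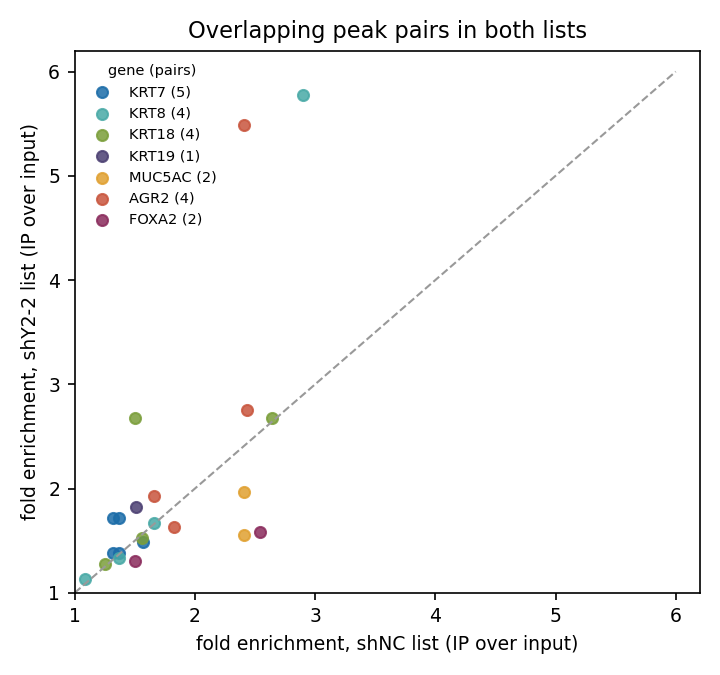
Fold enrichment of the 22 overlapping member peak pairs, with the shNC list on the x axis, the shY2-2 list on the y axis, 1 point per pair and a dashed line of equality. Most points lie below 2 and near the line, and the points of KRT8 (2.90 and 5.78) and AGR2 (2.41 and 5.49) lie farthest above it.

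GGAC was found in 19 of the 30 shNC member peaks (63.3%) and 15 of the 25 shY2-2 member peaks (60.0%), close to the 61.0% and 60.6% of all peaks, and DRACH in 93.3% and 92.0% against 95.3% and 95.1%. Member peaks held 4.88 and 4.44 GGAC per kb. On the canonical transcripts, 29 GGAC lay under a member peak, 13 of them under peaks of both lists, 8 in shNC alone and 8 in shY2-2 alone by the gene named for the peak. AGR2 (3 of 3) and KRT8 (2 of 2) had all of theirs under peaks of both lists, KRT18 had 5 of 6, and MUC5AC had none of 9. The same split of GGAC over all peaks was not computed, so it was not read as a trait of the members. A match is a description of sequence and does not locate a methylated base.

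Other keratins were examined beside the members, as a list of 15 that is a subset of the family. Of its 6 kept genes, 3 passed a log2 ratio of -1 and none passed 1, with a median of -0.69. Over all kept genes, 2.14% passed -1 and 0.986% passed 1. The median depended on which keratins were listed: over all 7 kept keratins that are not members, which adds KRT83 (2.22 and 1.57 FPKM, log2 ratio -0.32), it was -0.32. KRT80, a type II chain of epithelia, stood at 41.2 and 11.8 FPKM (log2 ratio -1.72), KRT4, of stratified mucosa, at 6.70 and 1.76 FPKM (-1.48), and KRT13, its type I partner, at 1.48 and 0.119 FPKM (-1.15). KRT13 was kept through its shNC level alone, and with a mean FPKM of at least 1 required, 5 of the list were kept and 2 passed -1, with a median of -0.23. KRT81, the most abundant keratin, stood at 1332 and 1174 FPKM (-0.18), and KRT86, its near copy, at 38.1 and 32.3 FPKM (-0.23). The hair keratins KRT81 and KRT86 share long identical stretches, and their values are uncertain with respect to each other.

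Of the 17 airway secretory genes with a row, 10 stood below 1 FPKM in both libraries. The list was chosen with earlier results of these libraries known, so its counts are a description. Of the 7 kept, 3 passed -1, none passed 1 and 6 were below 0, with a median log2 ratio of -0.70. Over all kept genes, 2.14% passed -1, 0.986% passed 1 and 49.7% were below 0. CEACAM6, an adhesion glycoprotein of secretory cells, stood at 24.4 and 8.44 FPKM (-1.43), MUC5B, the other gel-forming airway mucin, at 4.64 and 1.38 FPKM (-1.24), and LCN2, a secreted iron-siderophore binder, at 8.52 and 3.16 FPKM (-1.20). SLPI, a secreted protease inhibitor, stood at 26.6 and 16.7 FPKM (-0.64).

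Alveolar and ciliated lists gave little. Of 3 alveolar type II genes kept, LPCAT1, which makes surfactant lipid, stood at 8.07 and 5.71 FPKM (-0.44), ABCA3, the surfactant lipid transporter, at 4.81 and 3.62 FPKM (-0.33) and ETV5 at 5.76 and 6.94 FPKM (0.23). CAV1 and EMP2 of the type I list had log2 ratios of -0.35 and 0.13. In the ciliated list TPPP3 stood at 1.91 and 0.859 FPKM (-0.65) and CCDC78 at 1.06 and 0.787 FPKM (-0.21). Both were kept through their shNC level alone, so no direction was read from them. No basal cell gene reached 1 FPKM. Of the 3 surface genes kept, CDH1 was at 9.99 and 5.28 FPKM (-0.81), EPCAM at 2.02 and 1.20 FPKM (-0.46) and SPINT2 at 44.2 and 38.2 FPKM (-0.20), and none passed -1.

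**Figure D5:**
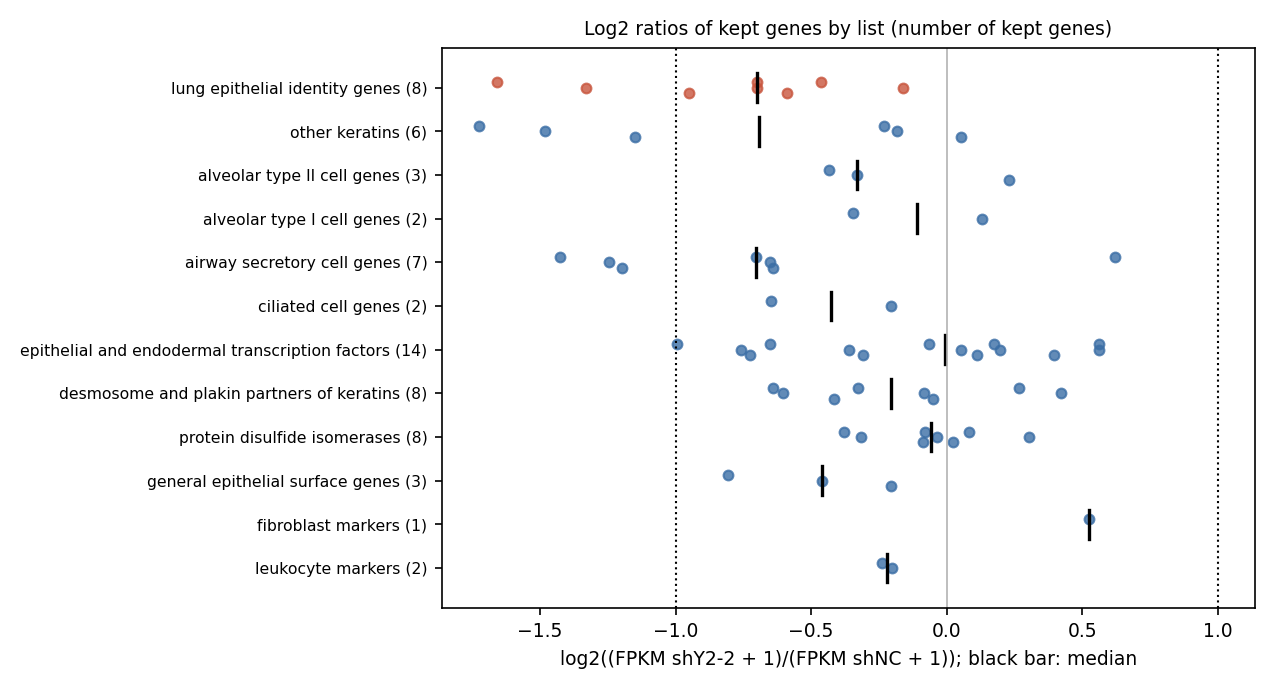
Log2 ratios of the kept genes of each list, 1 point per gene, with a black bar at the median and dotted lines at -1 and 1; the number of kept genes is in parentheses. The 8 lung epithelial identity genes have a median of -0.70, the listed other keratins -0.69 (-0.32 over all 7 kept keratins that are not members) and airway secretory genes -0.70, and transcription factors lie on both sides of 0 around a median of -0.01.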

How the data were processed

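m6A-seq and RNA-seq of A549 cells were analysed from deposited tables, with conditions taken from the labels. The submitters' processing notes name fastp, and per the study's methods reads were mapped to GRCh38 with HISAT2. From the input reads the authors made the deposited FPKM values with StringTie. Peaks were called with exomePeak and annotated with ChIPseeker; each peak's deposited p-value, log10 scores of p and FDR, and fold enrichment (a linear IP to input ratio) were used as the authors gave them. Versions are not given in the sources used here. Kept genes reached an FPKM of 1 in one or both inputs, and a pseudocount of 1 was added. No count test was run, since FPKM values are not counts and each condition had 1 library. Repeated peak rows were counted once. Sequences came from the GRCh38 reference, and transcripts from GENCODE release 44, whose bounds differ from the expression table for KRT18, FOXA1 and FOXA2. The members and gene lists were chosen with earlier results of these data known. Named genes were all members, YTHDF2, the 3 genes of each list with the highest mean FPKM, every list gene past a log2 ratio of 1 or -1, markers of other cells as whole lists and the 3 most abundant keratin pseudogenes. HNF4A, FOXA3, TFF1, SFTPC, KRT83 and DSP were named after their values were seen. Ratio calls and peak overlaps were tested on simulated data. Python 3.11.15, NumPy 2.4.6, pandas 2.3.3 and matplotlib 3.10.9 were used.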

Additional observations from a re-analysis of the deposited data

How the results depend on the processing

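With no replicates, a ratio was taken to have moved when it differed by over 0.58 on the log2 scale (1.5-fold) and a count when it differed by over 1.5 times. All 32 recomputed member ratios (8 genes under pseudocounts of 0.1 and 5, centring on the median and TPM) moved by less. They stayed below 0, which these settings could not change. A pseudocount keeps the sign of a ratio, and centring and TPM both shifted the ratios down here. The threshold of 1.5-fold raised the members past it from 2 to 6. Stricter peak filters reduced the member peaks most: an FDR of at most 0.001 left 18 in shNC and 14 in shY2-2, a fold enrichment of at least 2 left 10 and 5, and one of at least 4 left 0 and 2. On TPM values 3 members passed -1, KRT19 besides AGR2 and FOXA2, and 5.05% of kept genes did. With a pseudocount of 0.1, the share of kept genes below -1 was 4.91%, 2 transcription factors (HNF4A and FOXA3) and 1 ciliated gene passed the threshold, and no other list count changed by over 1.5 times. Where overlap with a peak of any gene counted, chosen after seeing the data, 20 rather than 19 shY2-2 member peaks met a shNC peak, the KRT7 peak being the addition. The wider keratin set and the filter on the mean FPKM were likewise chosen after seeing the data. No paired analysis was possible because each condition has 1 input and 1 IP library. Unknown read depth limits every value.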

Other observations

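Transcription factors of the airway and gut endoderm lay on both sides of 0. Of 14 kept, none passed a log2 ratio of 1 or -1, 7 were below 0 and the median was -0.01. CEBPB, a bZIP factor of inflammatory and epithelial genes, stood at 48.5 FPKM in shNC and 72.1 FPKM in shY2-2 (log2 ratio 0.56), KLF5 at 25.1 and 28.5 FPKM (0.18) and ELF3, an epithelial ETS factor, at 22.7 and 30.2 FPKM (0.40). Among those below 0 were HNF4A (3.87 and 1.44 FPKM, -0.99) and FOXA3 (1.5 and 0.511 FPKM, -0.72), which were named after their values were seen. FOXA3 was kept through its shNC level alone.

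Partners of the members were described in the same way. Of 8 kept desmosome and plakin genes, none passed the threshold and 6 were below 0, with a median of -0.20: JUP, which encodes plakoglobin, stood at 36.7 and 44.4 FPKM (0.27), PLEC, the plectin that links keratin filaments, at 31.2 and 23.1 FPKM (-0.41) and DSG2, a desmosomal cadherin, at 25.6 and 16.5 FPKM (-0.60). DSP, the desmoplakin gene, had the lowest ratio of these (15.7 and 9.73 FPKM, -0.64), within the range of the members. Of 8 kept protein disulfide isomerases, the enzyme family of AGR2, none passed and the median was -0.06, with PDIA4 at 149 and 120 FPKM (-0.32), PDIA6 at 125 and 118 FPKM (-0.08) and PDIA3 at 80.3 and 78.3 FPKM (-0.04). TFF1, a secreted trefoil peptide, was the kept airway secretory gene above 0, at 1.43 and 2.74 FPKM (0.62).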
